A study of Mus musculus with 2 samples.

Results

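CGRP, substance P and related peptide signalling was followed through 9 genes of the dorsal root ganglion, matched by symbol among the 31253 genes of the deposited tables. They comprise 6 peptide precursor genes (Calca, Calcb, Tac1, Adcyap1, Gal and Cartpt) and 3 receptor genes (Calcrl, Ramp1 and Tacr1), and all 9 symbols were found once. The rule matches the genes by symbol and uses no measured value, but the genes were chosen with earlier results of these data known. Counts of these genes set beside all genes are therefore a description. The study profiled ganglia of lumbar levels 4 to 5 from wild-type mice aged 8 weeks with single-cell RNA sequencing in droplets. Both libraries are labelled AEW, for acetone-ether-water, a solvent and water treatment that dries the skin and causes itch. They are its replicates 1 and 2, so the group holds 2 libraries, and no library of another treatment was analysed here. Every comparison below is therefore between cell classes of the same ganglia. The labels do not say whether the libraries came from separate animals or how many mice each pooled. The p-values therefore measure only how class differences vary between these libraries, pooled over classes, and that variation may be technical.

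Small-diameter sensory neurons that make peptides release them at both ends of the axon. Calcitonin gene-related peptide (CGRP) widens vessels and acts on a receptor built from CALCRL, a membrane protein, and the accessory protein RAMP1. The same CALCRL joined to RAMP2 or RAMP3 instead receives adrenomedullin. Substance P, which Tac1 encodes together with neurokinin A, acts on the receptor encoded by Tacr1, makes venules leaky and transmits pain and itch signals in the spinal cord. PACAP (Adcyap1), galanin (Gal) and the CART peptides (Cartpt) are carried in the same kind of vesicles, and galanin is known to rise in injured sensory neurons.

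The cells were grouped without these genes. Barcodes in which 500 or more genes were detected and less than 20% of UMIs (unique molecular identifiers, each counting 1 captured RNA molecule) were mitochondrial were clustered with the 9 genes, a list of 24 related pathway genes, and mitochondrial and ribosomal protein genes held out, and clusters were named from fixed markers. The depth was 113251556 UMIs over 8818 barcodes in replicate 1 and 102347251 over 11767 in replicate 2, of which 7774 and 10270 cells were kept, and the libraries shared 24 barcode sequences. The cell type label is neuron, but the named neurons were 553 and 656 cells. They fell into 8 classes that each resemble a neuron type: peptidergic C-fibre nociceptors (PEP-C, 130 and 176 cells), peptidergic A-fibre nociceptors (PEP-A, 29 and 31), the Mrgprd-type NP1 (153 and 163), the Mrgpra3-type NP2 (45 and 32) and the Nppb-type NP3 (32 and 30), C-fibre touch neurons (TH, 56 and 133), a TRPM8 class named from cold-neuron markers (43 and 48) and large A-fibre neurons (NF, 65 and 43). Another 13 non-neuronal classes held 12839 cells. A further 293 deep neurons, 616 shallow ones and 3087 other barcodes stayed unnamed and were left out. The 10 neuron markers summed to 136 to 182 and 136 to 193 UMIs per 10000 over the neuron classes, against 11.1 to 41.3 and 20.8 to 49.6 over the 13 non-neuronal classes. Levels are a gene's UMIs per 10000 UMIs of the class (UMIs of the gene divided by all UMIs), given for replicate 1 and then replicate 2.

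All peptide genes but Calcb were highest in the same neuron class, PEP-C, so their promoters were read for the cyclic AMP response element, a site known to act in several neuropeptide genes. The core TGACG, on either strand, was searched in the 250 bases before each start in RefSeq's promoter table (GRCm38.p6), which held 8 of the 9 genes and not Calcb. It occurred in the windows of 5 of those genes, Calca, Tac1, Adcyap1, Cartpt and Tacr1, beside 19.8% of the 27025 genes in the table (17.8% of its 32851 promoters). The whole palindrome TGACGTCA occurred in Cartpt alone of these, beside 1.77% of genes (1.55% of promoters), and each such match also holds the core on both strands. Gal, Calcrl and Ramp1 had no match in this window. The match nearest the start of each peptide gene is shown 5' to 3' on the gene's strand with the match in capitals, 43, 65, 91 and 112 bases before the start for Tac1, Calca, Adcyap1 and Cartpt. Tac1 carries it as CGTCA, the reverse complement. These starts are those of the promoter table. The Tac1 and Cartpt stretches shown lie inside the gene spans given further below, which come from another annotation. Adcyap1 has 2 starts in the promoter table, and the first listed was used.
Tac1 (chr6:7555007-7555033, plus strand): ctctacaggctCGTCAcgcctgagata
Calca (chr7:114636407-114636433, minus strand): aagcacagaggTGACGcaatctgtctg
Adcyap1 (chr17:93198915-93198941, plus strand): gactaggatgcTGACGtcttttactga
Cartpt (chr13:99900777-99900806, minus strand): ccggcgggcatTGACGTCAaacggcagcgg
A match describes the letters in this window and is not shown to be a used site.

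Calca, the gene of alpha-CGRP (ENSMUSG00000030669, chr7:114631478-114636357 on the minus strand of GRCm38), differed widely between the neuron classes. It reached 154 and 205 UMIs per 10000 in PEP-C, 71.3 and 148 in PEP-A and 90.6 and 114 in NP2. NP1 held 14 and 19.2. The remaining classes were low, at 5.57 and 6.54 in NF, 4.66 and 11.3 in TRPM8, 3.21 and 2.57 in TH and 2.43 and 1.89 in NP3. The library ranges of PEP-A and NP2 overlapped, as did those of TRPM8 and NF, and the PEP-C values lay above every value of the other classes. PEP-C exceeded the mean of the other 7 classes by log2 3.77 ± 0.17 (SE, edgeR adjusted p = 1.66e-10). Against PEP-A alone the difference was 0.67 ± 0.30 (SE, edgeR adjusted p = 0.121), and NP2 differed from PEP-C by -0.65 ± 0.30 (SE, edgeR adjusted p = 0.112), so neither passed the threshold of 0.05. Mrgpra3-type NP2 neurons, a class known for itch, were higher in Calca than NP1 by 2.60 ± 0.31 (SE, edgeR adjusted p = 1.71e-05) and than NP3, the Nppb-type itch class, by 5.69 ± 0.37 (SE, edgeR adjusted p = 1.54e-08). TH was lower than NP1 by 2.65 ± 0.32 (SE, edgeR adjusted p = 4.96e-06). These comparisons share the same libraries and partly the same classes. Of all Calca UMIs in named neurons, 59.5% and 70.3% lay in PEP-C, 19.1% and 9.20% in NP2, 9.11% and 10.8% in PEP-A and 9.99% and 7.69% in NP1. The counts are per gene and do not separate CGRP from the calcitonin transcripts that the same gene makes.

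Calcb, the paralog that encodes beta-CGRP (ENSMUSG00000030666, chr7:114718643-114723365, plus strand), was ordered differently. Its highest level was in NP1, at 7.66 and 9.01 UMIs per 10000, followed by PEP-C at 5.50 and 7.65, PEP-A at 5.89 and 5.99 and NP2 at 4.73 and 6.17. TH held 3.37 and 2.52, TRPM8 1.78 and 3.98, NF 1.41 and 0.938 and NP3 0.220 and 0.325. NP1 and PEP-C differed by little, with the lowest NP1 value just above the highest of PEP-C, while PEP-C, PEP-A and NP2 overlapped and NP3 lay far below all others. NP2 exceeded NP3 by log2 4.52 ± 0.37 (SE, edgeR adjusted p = 1.73e-07), and TH fell below NP1 by 1.66 ± 0.30 (SE, edgeR adjusted p = 0.000309). PEP-C differed from PEP-A by 0.05 ± 0.29 (SE, edgeR adjusted p = 0.932) and NP2 from NP1 by -0.65 ± 0.29 (SE, edgeR adjusted p = 0.158), and neither passed. NP1 held 52.1% and 44.2% of the neuronal Calcb UMIs. The pair are near-identical in part, and how reads that match both were counted is not given in the sources used here, so a small Calcb level beside a high Calca level is uncertain.

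**Figure D1:**
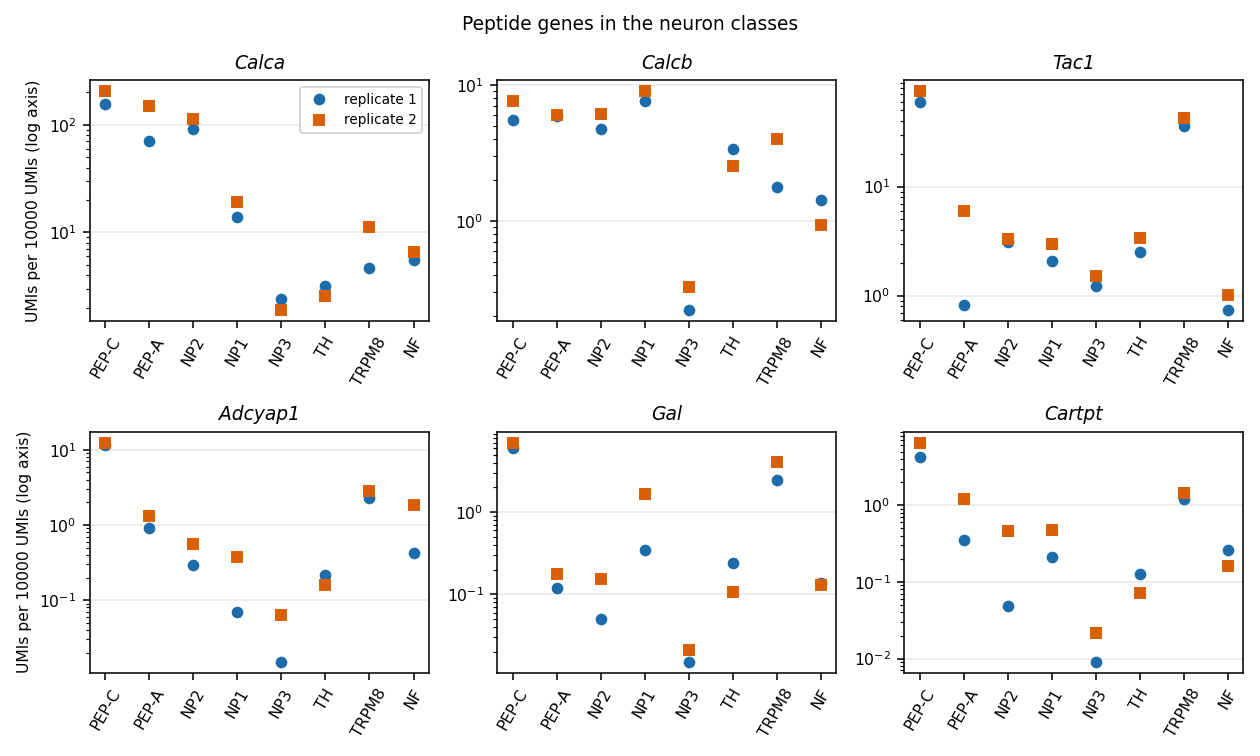
UMIs per 10000 UMIs (log axis) of the 6 peptide genes in the 8 neuron classes, with 1 point for each library. PEP-C is the highest class for Calca, Tac1, Adcyap1, Gal and Cartpt in both libraries, and NP1 for Calcb.

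Tac1, the substance P precursor gene (ENSMUSG00000061762, chr6:7554879-7565834, plus strand), was high in PEP-C and TRPM8. PEP-C held 59.6 and 75.0 UMIs per 10000 and TRPM8 36.2 and 42.4, which joins unlike clusters described below. The other classes held 3.09 and 3.32 in NP2, 2.52 and 3.40 in TH, 2.08 and 3.00 in NP1, 0.816 and 6.00 in PEP-A, 1.23 and 1.53 in NP3 and 0.736 and 1.01 in NF. No PEP-C or TRPM8 value overlapped a value of these 6 classes, and the PEP-A libraries differed widely. PEP-C exceeded the other classes by log2 4.36 ± 0.24 (SE, edgeR adjusted p = 9.57e-10) and PEP-A by 4.43 ± 0.48 (SE, edgeR adjusted p = 5.85e-06), with 6.09 in replicate 1 alone and 3.60 in replicate 2 alone. NP2 was lower than PEP-C by 4.21 ± 0.47 (SE, edgeR adjusted p = 4.00e-06) and did not pass against NP1 (0.35 ± 0.41). PEP-A and NP2 were high in Calca and low in Tac1: Calca UMIs per Tac1 UMI were 2.59 and 2.73 in PEP-C, 87.5 and 24.7 in PEP-A, 29.3 and 34.3 in NP2, 6.73 and 6.41 in NP1 and 0.129 and 0.267 in TRPM8.

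The other peptide genes peaked in PEP-C as well. Adcyap1, which encodes PACAP (ENSMUSG00000024256, chr17:93199017-93206537, plus strand), held 11.5 and 12.5 UMIs per 10000 in PEP-C, 2.31 and 2.83 in TRPM8, 0.424 and 1.83 in NF and 0.916 and 1.34 in PEP-A. NP2 held 0.294 and 0.553, NP1 0.0693 and 0.371, TH 0.213 and 0.160 and NP3 0.0153 and 0.0640. PEP-C lay above every other value, and its excess over the other classes was log2 4.94 ± 0.26 (SE, edgeR adjusted p = 5.98e-10). Gal, the galanin gene (ENSMUSG00000024907, chr19:3409915-3414544, minus strand), stood at 6.07 and 7.0 in PEP-C and 2.48 and 4.05 in TRPM8. NP1 held 0.343 and 1.67, and the other 5 classes held between 0.0153 and 0.241 in either library. PEP-C did not overlap any other class in Gal, and exceeded them by 4.94 ± 0.28 (SE, edgeR adjusted p = 1.46e-09). Cartpt, which encodes the CART peptides (ENSMUSG00000021647, chr13:99898489-99901091, minus strand), held 4.21 and 6.53 in PEP-C, 1.19 and 1.42 in TRPM8 and 0.355 and 1.20 in PEP-A. NP1 held 0.210 and 0.473, NP2 0.0482 and 0.463, NF 0.262 and 0.163, TH 0.127 and 0.0706 and NP3 0.00915 and 0.0213. PEP-C lay above all of these, with an excess of 4.58 ± 0.31 (SE, edgeR adjusted p = 9.33e-09). The TRPM8 and PEP-A ranges of Cartpt overlapped.

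In the comparison of PEP-C with the other neuron classes, all 8 tested genes passed in the higher direction, where 18.3% of the 13083 tested genes did and 10.3% were lower. Of these, Ramp1 rested on 1 cluster of 17 and 9 cells: PEP-C held 0.0384 and 0.0184 UMIs per 10000 with it and 0.00283 and 0.00385 without, and the Ramp1 call was lost (1.21, adjusted p = 0.0826) when neurons were classed by a per-cell marker gate instead of by cluster. The gate also took PEP-A, which had no Ramp1 UMI, out of the other classes, so the comparison was not the same. Calcb passed, at 1.31 ± 0.20 (SE, edgeR adjusted p = 7.63e-05), against the mean of the other classes only. NP1 lay above PEP-C in Calcb in both libraries. The median log2 difference of the 8 was 4.06, beside 0.04 over all genes. Tacr1 did not pass the filter on low counts and was not tested. PEP-A differed from the other classes in fewer of them, with 5 of 8 higher and none lower, against 18.5% and 9.52% of all genes. The 5 were Calca at log2 3.01 ± 0.18 (SE, edgeR adjusted p = 2.32e-09), Calcb at 1.26 ± 0.20, Cartpt at 1.34 ± 0.43, Adcyap1 at 1.08 ± 0.34 and Calcrl at 1.38 ± 0.44. Tac1 at -0.70 ± 0.34 (SE, edgeR adjusted p = 0.150) and Gal at -1.24 ± 0.53 (SE, edgeR adjusted p = 0.0930) did not pass. The median of the 8 was 1.17, beside 0.02 over all genes. Between the peptidergic classes themselves, Gal at 5.41 ± 0.57, Adcyap1 at 3.38 ± 0.46, Cartpt at 2.84 ± 0.52 and Tac1 were higher in PEP-C, and Ramp1 was also called, which made 5 of 8, with none lower, beside 10.8% and 12.8% of all genes. Ramp1 had no UMI in PEP-A, and without that cluster its PEP-C levels lay under the PEP-A floor of 3 UMIs per library, 0.00772 and 0.0130 UMIs per 10000, so no direction is read for it. The peptide calls in PEP-C against the other classes held under every alternative that gave a test. With no doublets removed and under the per-cell gate, however, the other classes did not include PEP-A. The PEP-A calls of Cartpt and Adcyap1 were lost with DESeq2 (ranges are of the adjusted p over the alternatives that filter low counts), at 1.32 (adjusted p = 0.144, range 0.0253 to 0.446) and 1.09 (adjusted p = 0.111, range 8.78e-05 to 0.145), and those of Calcb and Calcrl at a cluster resolution of 1, at 0.52 (adjusted p = 0.0898, range 4.17e-06 to 0.0898) and 0.49 (adjusted p = 0.564, range 0.0174 to 0.564).

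NP2 neurons were lower than PEP-C in the other peptides. Against PEP-C, 6 of 8 genes were lower and none higher in NP2, where 16% and 14.2% of all genes were, and their median was log2 -3.05 beside -0.05. Gal at log2 -6.07 ± 0.59 (SE, edgeR adjusted p = 9.96e-07), Adcyap1 at -4.77 ± 0.50, Cartpt at -4.59 ± 0.59 and Tac1 led, followed by Ramp1 and by Calcrl at -1.44 ± 0.42, while Calca and Calcb did not pass. In replicate 1 and replicate 2 alone, Gal was -6.77 and -5.37, Cartpt -6.29 and -3.68 and Calcrl -2.03 and -0.57. The Ramp1 call was lost with DESeq2, at -2.04 (adjusted p = 0.173, range 0.0305 to 0.461), and its sign turned under the per-cell gate, at 0.65, and Calcrl was lost with DESeq2, at -1.36 (adjusted p = 0.0884, range 0.0171 to 0.0884).

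Against NP1, NP2 was higher in Calca and Calcrl (2.03 ± 0.53) and lower in Gal (-3.36 ± 0.57), which is 2 of 8 and 1 of 8 beside 9.29% and 7.51% of all genes. The Gal difference rested on an NP1 cluster led by Sprr1a, described below, and was -0.05 (adjusted p = 0.982, range 5.53e-05 to 0.988) when that cluster and a TRPM8 cluster led by Penk were left out. The Calcrl call was lost under the per-cell gate, at 1.33 (adjusted p = 0.0833, range 0.0116 to 0.123). Against NP3, 5 of 8 were higher and none lower (13.8% and 11.6% of all genes), with a median of log2 3.08 beside 0.01. They were Calca, Calcb, Cartpt at 3.95 ± 1.14, Adcyap1 at 3.73 ± 0.76 and Tac1 at 1.42 ± 0.44. Cartpt was 2.52 in replicate 1 alone and 4.61 in replicate 2 alone, and Adcyap1 4.39 in replicate 1 alone and 3.29 in replicate 2 alone. The last 3 were lost when neurons under 10000 UMIs were kept: Cartpt at 0.11 (adjusted p = 0.950, range 0.000866 to 0.950), Adcyap1 at 0.07 (adjusted p = 0.951, range 1.55e-05 to 0.951) and Tac1 at 0.32 (adjusted p = 0.687, range 0.000905 to 0.687).

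C-fibre touch neurons (TH) were lower than NP1 in 4 of 8 genes and higher in none (17.6% and 18.8% of all genes), namely Calca, Calcb, Gal (-2.44 ± 0.50) and Cartpt (-1.84 ± 0.58). Gal was -0.70 in replicate 1 alone and -4.16 in replicate 2 alone, and turned sign when both of those clusters were left out, at 0.89 (adjusted p = 0.225, range 0.000955 to 0.225). Cartpt was -0.92 in replicate 1 alone and -2.95 in replicate 2 alone, and was lost with DESeq2, at -1.72 (adjusted p = 0.130, range 5.82e-05 to 0.426). The Calca and Calcb calls of TH held under every alternative with a test.

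**Figure D2:**
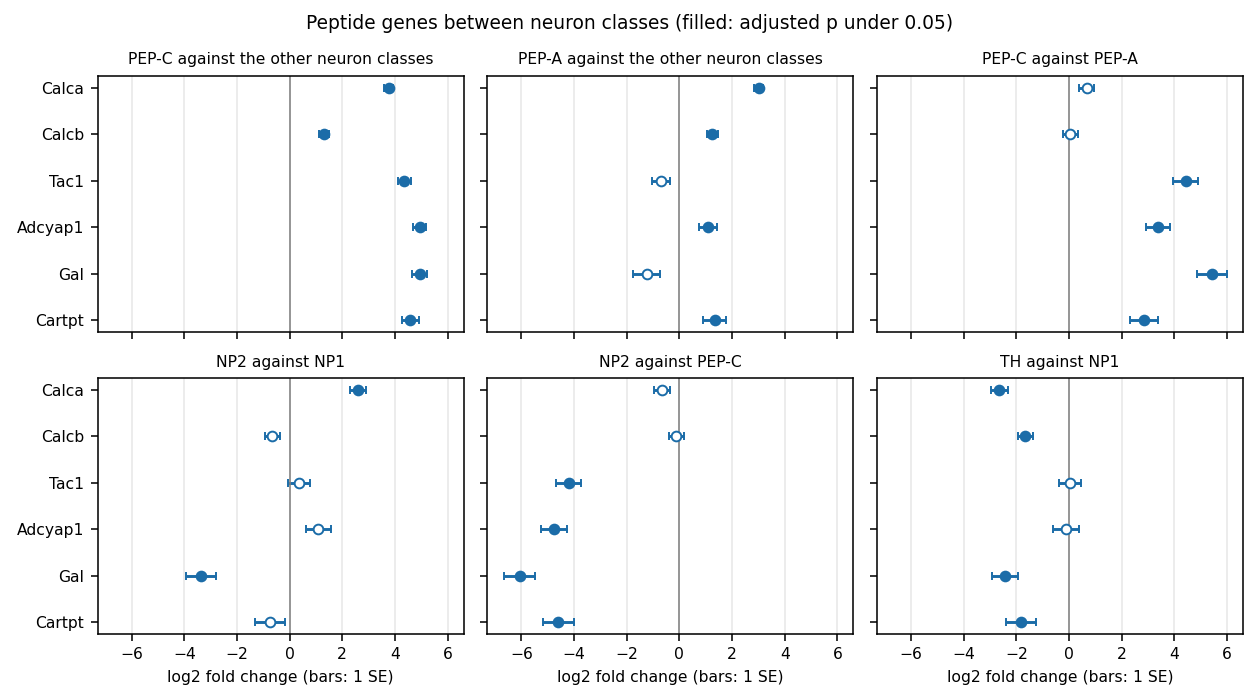
Log2 differences of the 6 peptide genes in 6 comparisons between neuron classes, with bars of 1 SE from edgeR and filled points at an adjusted p under 0.05. Calca and Calcb are open points where PEP-C is set against PEP-A or NP2, while Tac1, Adcyap1, Gal and Cartpt are filled there.

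Within PEP-C the peptides were not carried evenly. PEP-C consisted of 5 clusters, led by Uts2b (23 and 54 cells), Fgg (54 and 62 cells), Timp1 (21 and 36 cells), Slc5a7 (15 and 15 cells) and Dcn (17 and 9 cells). Calca ran from 39.2 and 80.5 UMIs per 10000 in the Dcn-led to 183 and 257 in the Fgg-led cluster. Tac1 was lowest in the Slc5a7-led cluster, at 22.9 and 26.4, and reached 79.5 and 75.7 in the Uts2b-led and 71.2 and 95 in the Fgg-led one. Gal was lowest in the Fgg-led cluster, at 1.60 and 3.20, and stood at 15.5 and 20.2 in the Dcn-led and 13.2 and 11.1 in the Slc5a7-led cluster. Cartpt was at 0.577 and 1.40 in the Timp1-led cluster against 6.25 and 9.79 and 7.95 and 11.3 in the Uts2b-led and Slc5a7-led ones. Adcyap1 in turn was highest in the Timp1-led cluster, at 22.7 and 19.5, and lowest in the Fgg-led one, at 7.86 and 8.96. In each of these pairs of extremes the libraries did not overlap. The Dcn-led, Fgg-led and Slc5a7-led clusters held PEP-C markers but none among their 10 leading genes, and Dcn is a gene of fibroblasts. The clusters were formed without the peptide genes but were not tested against each other, so the values are a description.

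The TRPM8 class was also made of unlike clusters. The cluster led by Grxcr2 (32 and 26 cells) held the cold channel gene Trpm8 at 2.08 and 0.271 UMIs per 10000, Tac1 at 23.8 and 28.5, Calca at 5.62 and 18.5 and Gal at 3.17 and 6.71. The cluster led by the enkephalin precursor Penk (11 and 22 cells), itself 1 of the 4 TRPM8 markers, held Trpm8 at 0.0305 and 0. Its class name is weakly held. There Tac1 stood at 75.2 and 62.2, as high as in the PEP-C class, with Calca at 1.66 and 1.09, Calcb at 0.0914 and 0.121 and Gal at 0.335 and 0.242. Calca UMIs per Tac1 UMI were 0.0221 and 0.0175 in that cluster, the lowest of the named neuron clusters. The Penk-led neurons were high in Tac1 and near the floor of the neuron classes in Calca. Among NP1, 1 cluster stood apart in Gal. It was led by Sprr1a (17 and 12 cells), a gene known to rise after axon injury, and held Atf3, an injury-induced transcription factor, at 3.94 and 6.55. Its Gal level was 5.71 and 24.9, against at most 0.378 in either library in the other 4 NP1 clusters. Calca in it was 12.5 and 1.92, with replicate 2 far lower than replicate 1. The part of dissociation or of injury in this cluster was not tested.

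**Figure D3:**
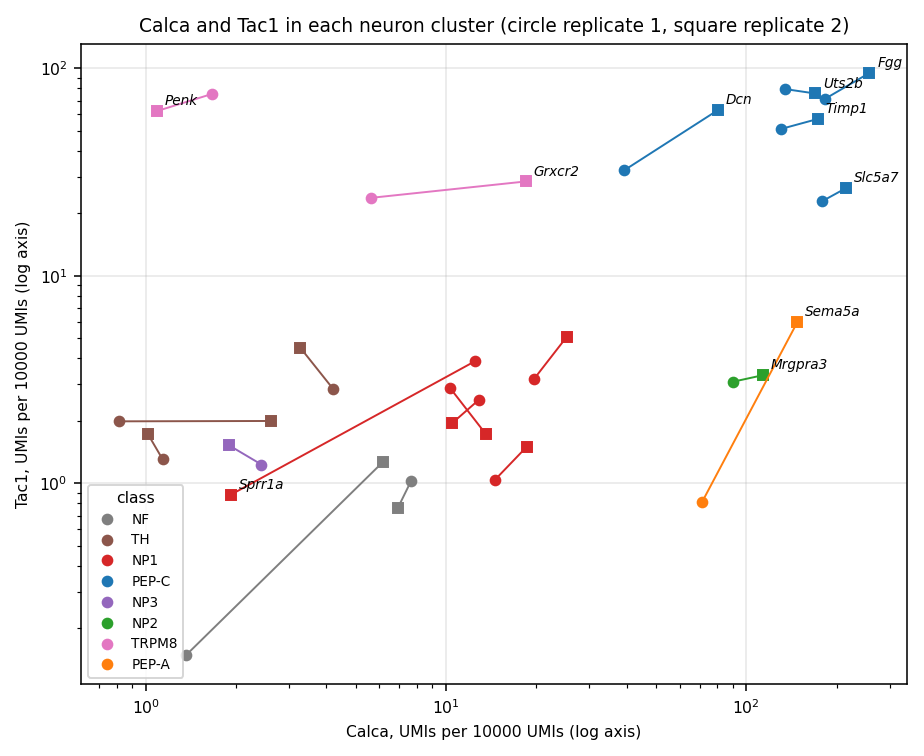
Calca against Tac1 in UMIs per 10000 UMIs (log axes) for each named neuron cluster, with the libraries joined by a line and selected clusters labelled by their leading gene. PEP-C clusters lie at the upper right, the NP2 and PEP-A clusters are high in Calca only, and the Penk-led cluster is high in Tac1 only.

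Single cells of PEP-C carried the peptides together. After each cell was thinned to 10000 UMIs, both Calca and Tac1 had a UMI in 130 of 130 cells (100%, 95% interval 97.2 to 100) and 173 of 176 cells (98.3%, 95.1 to 99.6). In NP2 the pair was found in 18 of 45 cells (40.0%, 95% interval 25.7 to 55.7) and 19 of 32 cells (59.4%, 40.6 to 76.3), and every thinned NP2 cell had Calca. Tac1 with Adcyap1 was found in 127 of 130 cells (97.7%, 95% interval 93.4 to 99.5) and 169 of 176 cells (96.0%, 92.0 to 98.4) of PEP-C. Gal had a UMI in 78.5% (70.4 to 85.2) and 85.2% (79.1 to 90.1) of PEP-C cells, 55.8% and 56.2% of TRPM8 cells and 6.67% and 6.25% of NP2 cells. Cartpt had one in 60.8% (51.8 to 69.2) and 71.6% (64.3 to 78.1) of PEP-C cells and in 16.3% and 18.8% of TRPM8 cells. The intervals are exact Clopper-Pearson 95% intervals and cover counting error only, and no neuron was too shallow to be thinned. Adcyap1 had a UMI in 97.7% and 97.7% of PEP-C cells against 44.8% and 67.7% of PEP-A cells.

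Peptide transcripts were also found in every non-neuronal class, where the number of Calca UMIs per barcode was nearly constant. Across the 13 classes Calca had a mean of 2.72 to 3.76 UMIs per barcode in replicate 1 and 3.63 to 4.12 in replicate 2. Tac1 had 0.299 to 0.705 and 1.01 to 1.18, a wider range in replicate 1. Calcb had 0.182 to 0.375 and 0.338 to 0.443, and Cartpt, with 0 to 0.0777 and 0.0565 to 0.115, ranged down to none in replicate 1. The median over these classes was 7.81 and 10.2 Calcb UMIs per 100 Calca UMIs, beside 10.5 and 8.14 in neurons. For Tac1 it was 15.1 and 28.6, beside 29.3 and 31.4. Whether free RNA gave these UMIs was not tested. TH neurons had 39.8 and 15.6 Calca UMIs per cell and NP3 neurons 24.9 and 11.8, above the non-neuronal range in both libraries. The Penk-led cluster had 9.91 and 4.09, and the replicate 2 value lay within the range of the non-neuronal classes. Gal in NP2 was at 0.711 and 1.22 UMIs per cell and in NP3 at 0.156 and 0.133, with the non-neuronal classes at up to 0.0850 and 0.152. In replicate 2 the NP3 value of Gal lay within the non-neuronal range.

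Per 10000 UMIs the peptide levels differed between non-neuronal classes. All 6 peptide genes were called lower in endothelial cells than in glia (27.3% of all genes were), with Calca at log2 -1.03 ± 0.19 (SE, edgeR adjusted p = 5.30e-05), and 5 of 6, all but Cartpt, lower in satellite glia than in Schwann cells (11.5% of all genes were), with Calca at -0.95 ± 0.19 (SE, edgeR adjusted p = 0.000613). Without the library as a term, 5 of those 6 calls and all 5 of these were lost, with Tac1 at adjusted p = 0.349 and 0.525, while Calca was at 0.0327 and 0.0995. In macrophages against glia, Cartpt (1.31 ± 0.36, edgeR adjusted p = 0.00528) and Adcyap1 (0.64 ± 0.25, edgeR adjusted p = 0.0462) were called higher instead, and both were lost without the library term, at 0.223 and 0.518. The Calca UMIs per barcode were 3.00 and 4.10 in endothelial cells, 2.96 and 3.88 in satellite glia and 3.09 and 4.12 in myelinating Schwann cells, whose median depths were 10546 and 6257.5, 7643 and 6030, and 3539 and 2757 UMIs. In neurons against glia, 7 of the 8 tested genes were higher and none lower, where 35.7% and 31.7% of 12832 genes were. That background depends on the scaling: 4575 genes were higher and 4073 lower with TMM, and 3419 and 5076 with DESeq2 size factors, which moved the median of all genes from 0.08 to -0.21. The 6 peptide genes were higher under both, and Calcrl was called only with TMM. Adcyap1 at log2 3.97 ± 0.17 (SE, edgeR adjusted p = 3.08e-15) and Cartpt at 3.97 ± 0.22 were followed by Tac1 (3.55 ± 0.18), Gal (3.48 ± 0.17), Calcb (3.03 ± 0.17) and Calca (2.92 ± 0.16). Adcyap1 was 4.56 in replicate 1 alone and 3.37 in replicate 2 alone, Cartpt 4.65 and 3.48 and Gal 4.15 and 2.95.

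**Figure D4:**
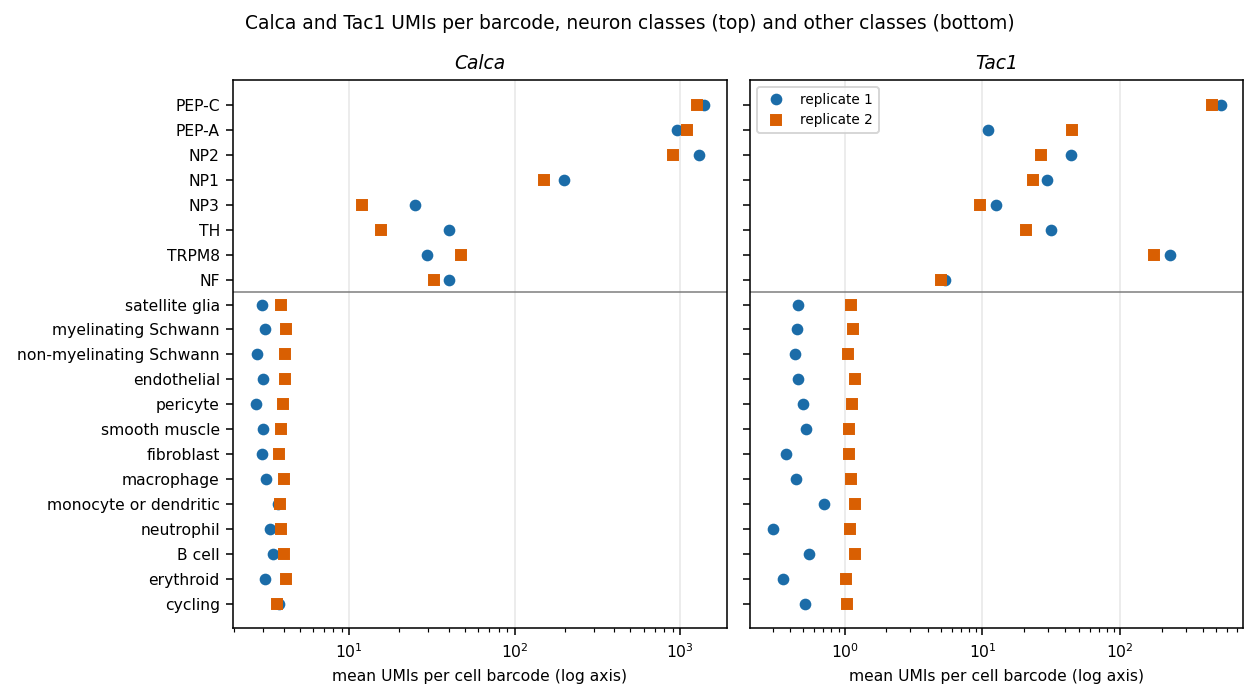
Mean UMIs of Calca and Tac1 per cell barcode (log axis) in the 8 neuron classes (top) and the 13 non-neuronal classes (bottom), with 1 point for each library. Calca lies between 2.72 and 4.12 in every non-neuronal class, and in the neuron classes between 11.8 and 1393.

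The CGRP receptor parts were highest outside the neurons, Calcrl in endothelial cells and Ramp1 in smooth muscle cells, and several classes held both. Calcrl, the receptor's membrane-spanning part (ENSMUSG00000059588, chr2:84330626-84425411, minus strand), was at 3.02 and 1.68 UMIs per 10000 in endothelial cells. It was far lower in smooth muscle cells (0.369 and 0.226), neutrophils (0.360 and 0.306), pericytes (0.354 and 0.183), fibroblasts (0.323 and 0.202) and macrophages (0.225 and 0.102). Satellite glia held 0.00381 and 0.0136, and the other non-neuronal classes held at most 0.169 in either library. Endothelial values lay above all others in both libraries, while the classes next in order overlapped. Endothelial cells exceeded glia in Calcrl by log2 7.36 ± 0.31 (SE, edgeR adjusted p = 8.33e-16), with 8.84 in replicate 1 alone and 6.24 in replicate 2 alone, and the mural cells of the vessel wall by 3.09 ± 0.31 (SE, edgeR adjusted p = 1.95e-08). Of the 2 tested receptor genes, Calcrl was higher and Ramp1 lower in endothelial than in mural cells, beside 18.8% and 17.5% of all genes. After thinning to 2000 UMIs, Calcrl had a UMI in 43.0% (37.7 to 48.4) and 28.0% (24.8 to 31.5) of endothelial cells and in 0.0389% and 0.230% of satellite glia.

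Ramp1, the accessory protein that makes CALCRL a CGRP receptor (ENSMUSG00000034353, chr1:91179822-91225196, plus strand), was at 2.17 and 2.07 UMIs per 10000 in smooth muscle cells and 1.38 and 1.98 in monocytes or dendritic cells. Macrophages held 0.797 and 0.80, neutrophils 0.565 and 0.688, fibroblasts 0.286 and 0.271 and pericytes 0.104 and 0.183. The smooth muscle values were alike in both libraries and above those of the myeloid classes. In endothelial cells Ramp1 had 0 UMIs in replicate 1 and 1 in replicate 2, over 366 and 804 cells. Smooth muscle cells were at least 298-fold higher than endothelial cells in replicate 1, with the floor of 3 UMIs per library, and 1175-fold higher in replicate 2 (exact 95% counting interval 208 to 46691). The class highest in Calcrl held next to no Ramp1. Smooth muscle cells exceeded pericytes in Ramp1 by log2 3.99 ± 0.48 (SE, edgeR adjusted p = 3.25e-06) beside 4.44% of all genes called higher, and the Calcrl difference of 0.40 ± 0.55 (SE, edgeR adjusted p = 0.813) did not pass. In replicate 1 alone the Ramp1 difference was 4.61. Ramp1 had a UMI in 29.0% (22.0 to 36.9) and 32.9% (25.9 to 40.6) of thinned smooth muscle cells and in 15.1% and 13.9% of macrophages. B cells and cycling cells held 0.119 and 0.608 and 0.370 and 0.0267, with the libraries far apart.

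Against glia, macrophages were higher in Calcrl by log2 3.65 ± 0.56 (SE, edgeR adjusted p = 9.14e-06), with 5.20 in replicate 1 alone and 2.21 in replicate 2 alone. Fibroblasts were higher by 4.22 ± 0.42 (SE, edgeR adjusted p = 1.44e-08), with 5.60 in replicate 1 alone and 3.1 in replicate 2 alone. Mural cells were higher by 4.27 ± 0.45 (SE, edgeR adjusted p = 3.50e-08), with 5.64 in replicate 1 alone and 3.07 in replicate 2 alone. Ramp1 was called higher in all 3, with edgeR adjusted p of 4.38e-13 in macrophages, 6.96e-10 in fibroblasts and 2.98e-09 in mural cells. In each of these 3 comparisons both tested receptor genes passed in the higher direction, beside 19.4%, 17% and 15.9% of all genes higher and 20.3%, 13.9% and 17.3% lower. For fibroblasts the 2180 genes higher and 1787 lower became 2577 and 1366 with DESeq2 size factors. The glial classes held 10, 4 and 2 Ramp1 UMIs over both libraries, so no Ramp1 fold against glia is given. Macrophages had little of the smooth muscle markers (summed over 9 genes, 0.121 and 0.451 UMIs per 10000, against 323 and 303 in smooth muscle cells).

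**Figure D5:**
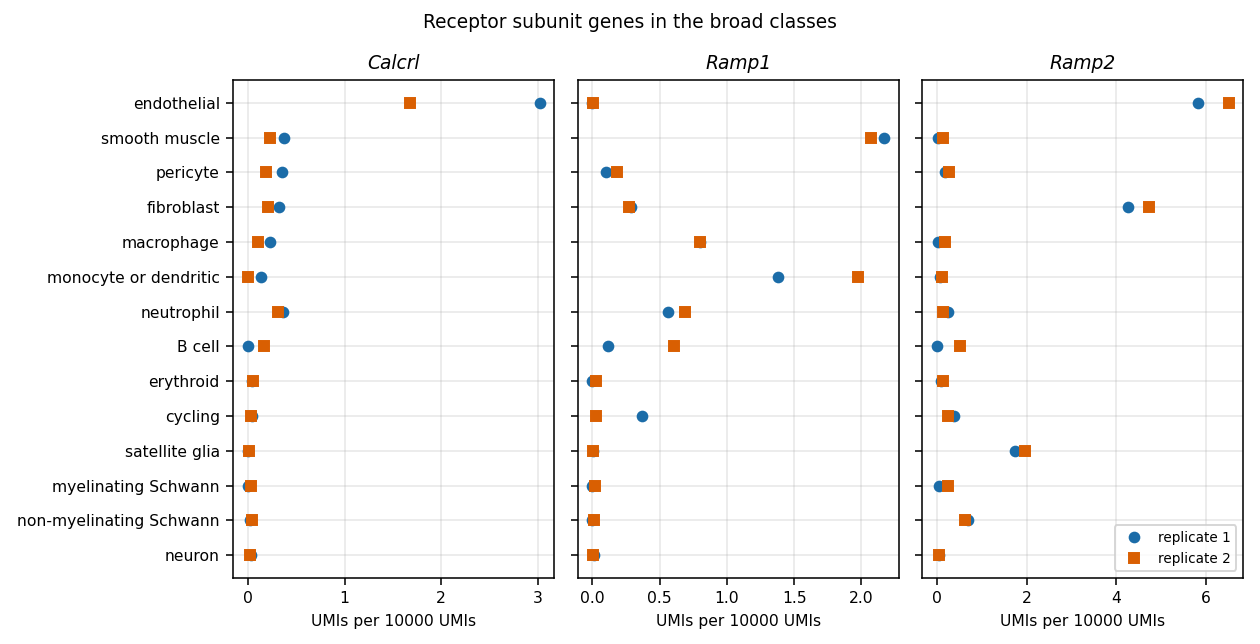
UMIs per 10000 UMIs of Calcrl, Ramp1 and Ramp2 in the 14 broad classes, with 1 point for each library. Endothelial cells are highest in Calcrl and Ramp2 and at 0 or 1 UMI in Ramp1, while smooth muscle cells are high in Ramp1.

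In neurons the receptor parts were rare. Calcrl was highest in PEP-C, at 0.0997 and 0.0517 UMIs per 10000, and held 0.0549 and 0.0320 in NP3, 0.0309 and 0.0433 in PEP-A, 0.0218 and 0.0314 in NP2, 0.0128 and 0.0233 in NF, 0.00721 and 0.00619 in TH, 0.00597 and 0.00554 in NP1 and 0.00367 and 0 in TRPM8. The PEP-C and NP3 ranges overlapped. PEP-C exceeded the other classes by log2 2.49 ± 0.28 (SE, edgeR adjusted p = 3.12e-06). Set against glia, the neurons as a whole were called higher in Calcrl by 0.97 ± 0.43 (SE, edgeR adjusted p = 0.0467), a difference of 2.23 in replicate 1 alone and -0.0037 in replicate 2 alone, and the call did not hold with DESeq2, at 0.57 (adjusted p = 0.369, range 0.0190 to 0.369). Ramp1 held 0.0384 and 0.0184 in PEP-C, 0.0477 and 0.0249 in TRPM8, 0.0109 and 0 in NP2 and 0.00610 and 0 in NP3, and 0.00213 and 0.00934 in NF, 0.00184 and 0.00158 in NP1, 0.00144 and 0.00124 in TH and 0 in PEP-A. Nearly all of the PEP-C Ramp1 lay in 1 cluster. The Dcn-led cluster of 17 and 9 cells held 42 of 45 and 16 of 20 of its UMIs, at 0.376 and 0.355 UMIs per 10000, and PEP-C without it held 0.00283 and 0.00385. The same cluster had no Calcrl UMI in either library. Its fibroblast markers summed to 38.2 and 33.9 over 9 genes, and to 1.58 and 1.47 without Dcn, within the range of the other PEP-C clusters, with 6 of the 9 detected in both libraries, and the part of fibroblast RNA in the Ramp1 level was not tested. The fitted PEP-C difference of Ramp1, log2 3.21 ± 0.47 (SE, edgeR adjusted p = 7.86e-05), rests on that cluster, and under the per-cell marker gate it was 1.21 (adjusted p = 0.0826, range 7.22e-05 to 0.0826). Under the gate the other classes did not include PEP-A.

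Tacr1, the substance P receptor gene (ENSMUSG00000030043, chr6:82402334-82560104, plus strand), was barely detected anywhere. All named neurons together held 10 UMIs, of which NF had 5, TH 4 and PEP-A 1, and fibroblasts held 2. The other 12 non-neuronal classes had none. In satellite glia, 0 of 2574 and 0 of 3048 thinned cells had a UMI, which by a floor of 3 counts allows a share of up to 0.117% and 0.0984% of cells with a UMI at that depth, not of cells expressing the gene. In PEP-C, by the same floor, 0 of 130 and 0 of 176 cells allows up to 2.31% and 1.70%. In endothelial cells 0 of 344 and 0 of 710 allows up to 0.872% and 0.423%. No order of the classes in Tacr1 could be read at this depth.

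The 24 related genes were receptors, accessory proteins, further peptides and peptide-cleaving enzymes of the same systems. In the neuron fit 7 of them passed the filter on low counts, and in the broad fit 8. In PEP-C against the other neurons 5 of the 7 were higher (Galr1, Mme, Gpr160, Ramp3 and Ece1) and Ramp2 was lower (18.3% and 10.3% of all genes), with a median of log2 2.06 beside 0.04 over all genes. Galr1, a galanin receptor, stood at 0.323 and 0.243 UMIs per 10000 in PEP-C, a difference of log2 5.66 ± 0.32 (SE, edgeR adjusted p = 2.57e-09), and at 1.11 and 0.948 in the Slc5a7-led cluster, where Gal was also high. It also stood at 0.173 and 0.165 in NP2, where Gal was low, and at 0 and 0.00158 in NP1. Ece1, an enzyme that cleaves peptides inside endosomes, was at 0.395 and 0.301 in PEP-C, a difference of 0.36 ± 0.11. Ramp3 and Galr1 were higher in PEP-A than in the others, and in NP2 than in NP1 and NP3, each 2 of 7, where 18.5%, 9.29% and 13.8% of all genes were higher. Galr1 (1.29 ± 0.35) and Gpr160, an orphan receptor, were higher in PEP-C than in PEP-A, 2 of 7 beside 10.8% of all genes. Gpr160 was at 0.217 and 0.187 in NP3 and lower in NP2, at log2 -1.87 ± 0.36 (SE, edgeR adjusted p = 0.00115), beside 11.6% of all genes lower. NP2 was higher than PEP-C in Crcp, a CGRP receptor component, by 0.46 ± 0.15 (14.2% of all genes). It was lower in Mme, the gene of neprilysin, which degrades substance P (16% of all genes). TH was lower than NP1 in Crcp (-1.16 ± 0.15), Ece1 (-0.65 ± 0.16) and Gpr160, 3 of 7 beside 17.6% of all genes.

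On the vessels the adrenomedullin side of the receptor family was present. Ramp2, which turns CALCRL into an adrenomedullin receptor, was at 5.84 and 6.51 UMIs per 10000 in endothelial cells, 4.27 and 4.74 in fibroblasts and 1.75 and 1.97 in satellite glia, and at 0.0231 and 0.138 in smooth muscle cells. Endothelial cells exceeded glia in Ramp2 by log2 3.51 ± 0.27 (SE, edgeR adjusted p = 8.98e-11) and mural cells by 5.54 ± 0.40 (SE, edgeR adjusted p = 6.46e-11). Endothelial cells were high in both Calcrl and Ramp2, and smooth muscle cells were high in Ramp1 with little Ramp2. Calcrl in smooth muscle cells, at 0.369 and 0.226, lay below endothelial cells and above each glial class. In endothelial cells against glia 5 of 8 tested genes were higher and 1 lower (26.2% and 27.3% of all genes), with Ece1 at 2.12 ± 0.19. The others were Ramp2, Ramp3, Adm and Gpr160, and Mme was lower. Against mural cells the same 5 were higher and Adcyap1r1 was lower (18.8% and 17.5% of all genes). In mural cells against glia Adcyap1r1 and Adm were higher (15.9% of all genes). Mme, Ece1 (-0.79 ± 0.22) and Ramp2 (-2.03 ± 0.42) were lower there (17.3% of all genes). Smooth muscle cells were lower than pericytes in Adcyap1r1 alone (3.03% of all genes). Macrophages were higher than glia in Gpr160 and lower in Mme, Ece1 and Ramp2 (19.4% and 20.3% of all genes). Fibroblasts were higher in Adm (4.53 ± 0.41), Ramp2 (3.06 ± 0.28), Ramp3 and Adcyap1r1, 4 of 8, and lower in none (17% and 13.9% of all genes). Satellite glia exceeded Schwann cells in Ramp2 by 2.92 ± 0.32 and in Ece1 by 1.14 ± 0.22, together with Adcyap1r1 (13.9% of all genes). They were lower in Mme and Ramp3 (11.5% of all genes). Neurons were higher than glia in Crcp (1.28 ± 0.17) and Gpr160 (35.7% of all genes). They were lower in Ramp2 (-3.73 ± 0.38), Ece1 (-1.45 ± 0.23), Adm and Mme (31.7% of all genes). The counts share the glial classes. Adcyap1r1, the PACAP receptor gene, was at 0.876 and 0.341 in pericytes, 0.231 and 0.101 in smooth muscle cells and 0.148 and 0.166 in fibroblasts. It was at 0.0247 and 0.0232 in satellite glia and without a UMI in both Schwann classes. Adm, the adrenomedullin gene, was at 0.254 and 0.477 in fibroblasts and 0.0874 and 0.303 in endothelial cells, and Gpr160 at 0.485 and 0.211 in macrophages.

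By the profile across the 8 neuron classes, the genes most like each peptide gene were found by the mean over the libraries of Pearson's r of log2(UMIs per 10000 + 0.1), among 4685 genes at 0.5 or more in a class. For Calca they were Epha5 (0.914) and S100a11 (0.906). For Tac1 they were Bex1 (0.950), Kcnmb2 (0.944) and Cacna2d1 (0.934). For Calcb they were Tagln2 (0.909), Abhd14a (0.884) and Znhit1 (0.877). No gene was named for more than 1 of these 3. For Adcyap1 they were Kcnk3 (0.927), Ptn (0.921) and Cartpt (0.915). For Gal they were Npy1r (0.904), Tac1 (0.892) and B2m (0.892). For Cartpt they were Arxes2 (0.919), Adcyap1 (0.915) and Gal (0.888). Adcyap1 and Cartpt were among each other's nearest, and Gal had Tac1 among its own. Across the 14 broad classes, among 6893 genes, Calcrl was most like Eng (0.883), Cxcl12 (0.882) and Npr1 (0.879), and Ramp1 most like Tnfaip8 (0.887) and Znrf2 (0.788). Classes share their library and differ in depth, so these are descriptions of 8 or 14 points.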

How the data were processed

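The 2 libraries were made with the 10x 3' v3.1 chemistry and deposited as gene-by-barcode matrices. Their values are counts of UMIs, not normalized, made by the authors with CASAVA 1.8 and Cell Ranger 5.0.1 on mm10, per the submitters' processing notes and the file headers. The deposited barcode and gene lists are names (other), not measurements.

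Barcodes with 500 or more genes and under 20% mitochondrial UMIs were kept. Scrublet's automatic threshold marked 1 and 0 barcodes and had not worked, so the highest scores were removed by rank (0.8% per 1000 barcodes, 555 and 1020 cells). Cells were clustered with scanpy 1.11.5 (Python 3.11.15, Leiden resolution 1.5), in a broad round and then among neurons of at least 10000 UMIs. Clusters were named from markers, and the naming rules were refined after the data were seen. The members and lists were chosen with earlier results of these data known. Median UMIs per cell were 4991 and 4102.5.

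Raw counts were summed per class and library. edgeR 4.0.16 (R 4.3.3, quasi-likelihood test, TMM, filterByExpr) was fitted to 16 sums of 8 neuron classes (13083 genes) and to 28 sums of 14 broad classes (12832 genes), with library as a term and Benjamini-Hochberg adjustment over all genes at 0.05. Differences are of the mean log2 levels of the classes. The library term is the pairing: classes of a library come from the same suspension. On simulated data (12218 genes, PEP-C against the others) all genes changed 2-fold or 4-fold were recovered, with 4 false calls of 204. For endothelial cells against glia (11104 genes) 94% of genes changed 2-fold and 100% of those changed 4-fold were recovered, with 8 false calls of 202. The simulation gave all classes the same profile and all genes the same spread, and changed only genes above a set level. Recovery and false calls for rarer genes, unequal spread or classes that differ in many genes were therefore not tested. DESeq2 1.42.0 and other alternatives are below.

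Named are all 9 members. From the list of 24, genes that passed and held 0.2 UMIs per 10000 or more in the higher class have values, and other genes of the list that passed are named without folds. For likeness, the 3 genes with the highest mean r are named, except where a gene is not reported here. Shares of cells with a UMI were taken after thinning to 10000 UMIs (neurons) or 2000 (broad classes). Gene positions are from the GRCm38 annotation, which matched 31184 of 31253 identifiers. Intervals and floors (3 UMIs) cover counting error only.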

Additional observations from a re-analysis of the deposited data

How the results depend on the processing

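With 2 libraries of 1 group, each value rests on 1 sum per class and library, and leaving out a library gives values with no test. Of 120 results for single genes, 71 were called. Under the alternatives with a test, 873 values kept their direction and side of the threshold, 67 lost the call, 26 gained one and 10 reversed. With 1 library, 190 values stayed within the spread of the libraries, 49 moved beyond it and 1 reversed. That spread is the SD of the same 2 single-library values. A main value near their middle therefore keeps both within it, however far apart the libraries are, and the 190 are no measure of stability.

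Without the replicate block, that is without pairing the classes of a library, the genes called between PEP-C and PEP-A went from 3092 to 1955 and those between satellite glia and Schwann cells from 3254 to 1987. The other counts of called genes, over both directions together, stayed within 1.5 times. By direction, NP2 against NP3 went from 1803 higher and 1519 lower to 979 and 1409 when neurons under 10000 UMIs were kept. Without the filter on low counts the adjusted p-values of abundant genes were far smaller, while the counts of called genes stayed within 1.5 times.

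Galanin and the low neuron classes depended most on how classes were drawn. For NP2 against NP1, Gal was 0.035 at Leiden resolution 2, 0.14 with no doublets removed and 4.56 under the per-cell marker gate. For NP2 against NP3, where Gal was not called, it was -5.08 with no doublets removed. For TH against NP1, Gal was 0.96 at resolution 2, 2.58 under the gate and 0.89 without the clusters led by Sprr1a and Penk, an alternative chosen after seeing the data. Under the gate, Cartpt was 0.81 and Adcyap1 1.47 for TH against NP1, and Ramp1 was 0.65 for NP2 against PEP-C. Calcrl in neurons against glia was -0.0037 without replicate 1 and 2.23 without replicate 2. The cause of each was not tested, except that the cluster left out held most NP1 Gal. Under the gate only 1 and 1 cells were classed as PEP-A, beside 29 and 31 by cluster. With no doublets removed, no class named PEP-A held 20 cells in each library. No PEP-A comparison could be fitted in either case, and the classes set against PEP-C did not include PEP-A. The PEP-A class thus depended on how classes were drawn.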
